A study of Mus musculus with 5 samples.

Results

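Cannabinoid receptors and the enzymes that make and break down anandamide are described here in single nuclei of the mouse hippocampus. They are 8 genes, taken by symbol from the RNA rows of all 5 count matrices: the receptors Cnr1, Cnr2, Gpr55 and Trpv1, the CB1-binding protein Cnrip1, and the enzymes Napepld, Faah and Naaa. Each symbol matched 1 row, so the 8 genes were 8 of the 32285 in each matrix. The rule itself uses no measured value.

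CB1, the protein of Cnr1, is a receptor of axon terminals that couples to inhibitory G proteins and lowers transmitter release. Its lipid ligands are made by the postsynaptic cell on demand and act backwards across the synapse, and in the hippocampus the receptor is best known on the terminals of cholecystokinin basket cells. Anandamide is released from N-acyl phosphatidylethanolamines by the phospholipase of Napepld and hydrolysed by the amidase of Faah. Naaa encodes a lysosomal amidase that acts on related N-acylethanolamines.

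The study profiled hippocampal nuclei with paired RNA and chromatin accessibility readouts, and each group is a single library. The wild-type library has no transgene named in its label, and the 5xFAD library comes from the 5xFAD transgenic mouse, a model of amyloid deposition. The other 3 libraries are 5xFAD as well and are labelled astrocyte-specific MAGL-KO, neuron-specific MAGL-KO and global MAGL-KO. MAGL is monoacylglycerol lipase, the enzyme of Mgll that degrades the other main endocannabinoid, 2-arachidonoylglycerol. The MAGL-KO libraries are therefore compared with the 5xFAD library, which all 3 comparisons share, and the 5xFAD library with the wild-type one. The driver of each cell-specific deletion, the age and sex of the mice and the number of mice in a library are not given in the sources used here. Values for 5 libraries are given in the order wild type, 5xFAD, astrocyte MAGL-KO, neuron MAGL-KO and global MAGL-KO. With 1 library in a group no test between groups exists, and every interval below covers counting error only.

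The 5 libraries held 4050 to 7498 nuclei, of which 3917 to 7032 were used, with totals of 101931020 to 159532813 UMIs (unique molecular identifiers, each 1 counted RNA molecule) and medians of 13729 to 17063 per nucleus. Pairs of libraries shared 29 to 63 nucleus barcodes. All 5 held nuclei with Xist UMIs alone and nuclei with Y-linked UMIs alone, and the share with Xist alone ran from 35.4% in the 5xFAD library to 71.8% in the neuron MAGL-KO library. The 26782 nuclei used formed 81 clusters, and clusters were named only from listed marker genes, so each class name below means nuclei like that type. Clusters were set aside where Y-linked UMIs occurred together with Xist in at least 30% of nuclei (12.1% to 15.6% of a library), a limit set after the data were seen. Another 9.27% to 15.5% of a library were in clusters that raised markers of 2 groups or too few markers. A further 1.56% to 10.9% of nuclei were left without a class because the leading genes of their cluster held more markers of another class, and this last share was lowest in wild type and highest in global MAGL-KO. The 20 classes that remained held 17935 nuclei. Hippocampal types were present (6712 granule-like, 3144 CA1-like and 853 CA3-like nuclei), and 515 and 770 nuclei carried markers of upper and deep cortical layers. Mgll, the gene named in the knockout labels, kept its UMIs in every library: in excitatory nuclei its level was 72.1, 73.2, 88.3, 89.8 and 76.9 UMIs per 1000000 UMIs of the class (counts per 1000000, CPM), and in astrocyte-like nuclei 456, 312, 436, 380 and 413. The files do not show where in the gene a UMI lies or which part was deleted, so these values check no label, and the libraries are named as labelled.

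Cnr1 had its highest level in 1 interneuron class. In Cck/Sncg-like nuclei, which carry markers of cholecystokinin basket cells, its level was 1391, 1687, 1683, 1746 and 1623 CPM. The 5 libraries lay close together, and the lowest of them was above every library of every other class. These 209 nuclei, of the 17935 in named classes, held 8120 of the 25381 Cnr1 UMIs found there, or 32.0%. The 3144 CA1-like nuclei, at a lower level, held 6397 of them, or 25.2%. Vip-like nuclei came next, with 541, 512, 743, 609 and 762 CPM, and their lowest library was above the highest of the third class, the Lamp5/Ndnf-like nuclei (median 175, range 129 to 212). The clusters were built without the 8 genes and the listed pathway genes, so Cnr1 did not help to form the Cck/Sncg-like class.

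Below these classes the order of neighbours overlapped between libraries. Mossy-like nuclei had a median of 145 CPM (113 to 200), Lhx6-lineage nuclei that were neither Sst- nor Pvalb-like 124 (74.7 to 157) and CA1-like nuclei 97.4, 87.8, 93.4, 112.5 and 96.9. CA2-like (median 74.9), CA3-like (70.3), deep-layer (62.2), Sst-like (57.1), subiculum-like (54.5) and upper-layer nuclei (52.8) followed, and of these neighbours only CA3-like stood above the highest library of the class next to it. Granule-like nuclei, the principal cells of the dentate gyrus, had the lowest median of the 20 classes, level with oligodendrocyte-like ones, with 7.67, 5.87, 8.22, 9.16 and 7.71 CPM. The mossy-like nuclei of the same region were above them in every library, by a log2 ratio of 3.88 to 4.6 (median 4.28). CA1-like nuclei were above granule-like ones by 3.50 to 3.90 (median 3.65). Taken over the whole class, the granule-like level overlaps that of oligodendrocyte-like nuclei (7.08 to 10.7 CPM) and is not read as expression. Both ratios are therefore read only as lower bounds. Granule-like clusters differed in Cnr1 and are described with the other clusters.

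Pooled by lineage, interneurons differed in Cnr1, while single clusters of the lineages overlapped. Nuclei of the Adarb2 lineage, which takes in the Cck/Sncg-, Vip- and Lamp5/Ndnf-like classes, were above those of the Lhx6 lineage by a log2 ratio of 3.73 to 4.5 (median 3.93, 15.3-fold). Of the Adarb2-lineage UMIs 8120 were in Cck/Sncg-like, 1546 in Vip-like and 828 in Lamp5/Ndnf-like nuclei. The Lamp5/Ndnf-like range overlapped that of the Lhx6-lineage nuclei that were neither Sst- nor Pvalb-like (74.7, 124, 157, 124 and 124 CPM). Against all excitatory nuclei the Adarb2 lineage was higher by 3.77 to 4.41 (median 3.87, 14.6-fold). Between the basket cell types, Cck/Sncg-like nuclei exceeded Pvalb-like ones by a median log2 ratio of 6.77 (4.96 to 7.11, 109-fold at the median). Pvalb-like nuclei had 44.3, 11.8, 20.8, 15.6 and 12.7 CPM. The wild-type library is the high one among them, and without it the 4 values stay under 21 CPM.

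**Figure D1:**
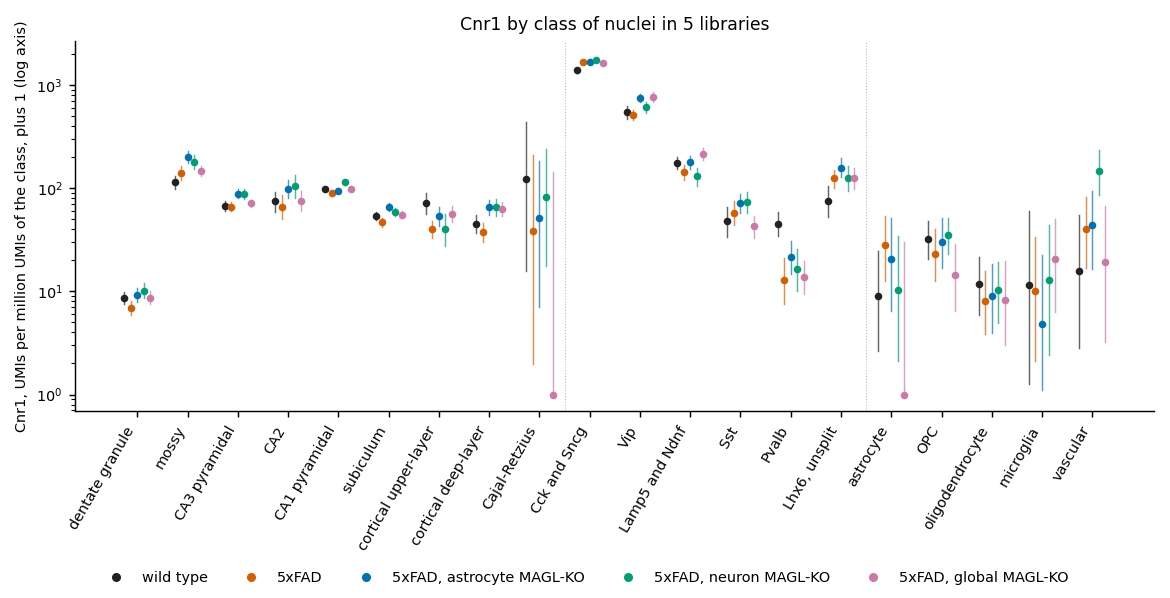
Cnr1 level in each class of nuclei, in CPM plus 1 on a log axis, with 1 point per library in colour and bars for exact 95% Poisson intervals. The Cck/Sncg-like points, 1391 to 1746, sit above all others, and the granule-like points, 5.87 to 9.16, near the bottom with the glial classes.

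Counted nucleus by nucleus, the high level was a property of nearly all Cck/Sncg-like nuclei. Their median was 33 Cnr1 UMIs (quartiles 18 and 49, highest 190), 90.0% held 10 or more, and 1 of 209 held none. Vip-like nuclei had a median of 6, with 4.55% at 0, and mossy-like nuclei also a median of 6, with 8.0% at 0. Lamp5/Ndnf-like nuclei had a median of 1, with 44.7% at 0, while 60.6% of Sst-like, 78.4% of Pvalb-like and 91.8% of granule-like nuclei had none. These shares depend on depth, which was 21344 UMIs at the median in Cck/Sncg-like, 12476 in granule-like and 2541.5 in oligodendrocyte-like nuclei. Thinned to 1000 UMIs each, 56.8% to 85.0% of Cck/Sncg-like nuclei still held Cnr1 in the 5 libraries, against 97.9% to 100% before thinning. For granule-like nuclei the share fell from 7.25% to 10.8% before thinning to 0.517% to 1.31% after it. For oligodendrocyte-like nuclei, which serve as a class that should lack most neuronal RNA, it was 1.40% to 3.05% before and 0.664% to 1.64% after. The thinned granule-like shares are thus within or under the oligodendrocyte-like range, while those before thinning are above it. The order of these 2 classes depends on the depth used, so the granule-like level is read neither as expression nor as background. The 2 classes differ in depth and no empty droplets were measured, so whether the granule-like RNA is background was not tested.

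Glial levels of Cnr1 were low. Over all libraries astrocyte-like nuclei had 13.9 CPM, microglia-like 10.5 and oligodendrocyte-like 8.5. Slc17a7, the vesicular glutamate transporter of excitatory neurons, reached 30.4, 15.8 and 12.8 CPM there. OPC-like nuclei (oligodendrocyte precursors) had 31.2, 22.2, 29.4, 33.9 and 13.5 Cnr1 CPM, with Slc17a7 at 14.9 and the interneuron gene Gad1 at 75.4 CPM pooled. Single libraries overlapped: the 5xFAD library had 26.9 CPM in astrocyte-like and 22.2 in OPC-like nuclei, and the global MAGL-KO library 19.4 in microglia-like and 13.5 in OPC-like ones. No empty droplets were measured, and the part of free RNA or of mixed nuclei in these glial values was not tested.

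Several classes held clusters that differed in Cnr1. Among CA1-like nuclei the cluster led by Cped1, Gpc3 and Fibcd1 had 122, 154, 134, 161 and 134 CPM, and the largest cluster, led by Stac, Man1a and Pantr1, had 87.3, 69.1, 67.1, 75.5 and 71.8. The former was higher in all 5 libraries, and a further CA1-like cluster that shares its leading genes Dcn, Bmpr1b and Tnni3k lay at 109 to 154. CA3-like nuclei fell into a cluster at 78.3 to 123 CPM, led by Itgbl1 and Kcnq5 among others, and one at 46.2 to 56.9, led by Trps1, with no overlap. The Lamp5/Ndnf-like class held a cluster led by Egfr, Ndnf and Reln at 241 to 419 CPM and one led by Hapln1 and Sema3c at 42.4 to 73.3. The class value of the Lamp5/Ndnf-like nuclei is a mean over both. A like split appeared in the deep-layer nuclei, with 61.4 to 116 CPM in the cluster led by Dkk2, Cobll1 and Sulf1 and 18.6 to 43.5 in the one led by Foxp2 and Rai14. These clusters were examined after their values were seen and are given as a description.

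The named classes held 49.3% of all 51509 Cnr1 UMIs. A cluster that was set aside accounts for 7397 more: it had the markers of Cck/Sncg-like cells, Cnr1 at 657 CPM, a median depth of 43804 UMIs and both sex markers in 62.2% of its 201 nuclei. These nuclei enter no class value.

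Cnr1 (ENSMUSG00000044288) lies on chromosome 4 at 33924593 to 33948831 (GRCm38, plus strand) and does not overlap another annotated gene. The RefSeq promoter table, built on GRCm38.p6, lists 3 start sites for it. The windows of 250 bases before and 50 after the second and the third start are shown because an accessible region, described with the other chromatin values, covers the second window entirely and leaves out the third. Capitals mark CG dinucleotides, of which the second window has 33 and the third 5; the median over 32851 promoter windows of the same length is 7. The coordinates are GRCm38.p6, chr4:33924394-33924693 and chr4:33926130-33926429, both on the plus strand.
Cnr1 start 2: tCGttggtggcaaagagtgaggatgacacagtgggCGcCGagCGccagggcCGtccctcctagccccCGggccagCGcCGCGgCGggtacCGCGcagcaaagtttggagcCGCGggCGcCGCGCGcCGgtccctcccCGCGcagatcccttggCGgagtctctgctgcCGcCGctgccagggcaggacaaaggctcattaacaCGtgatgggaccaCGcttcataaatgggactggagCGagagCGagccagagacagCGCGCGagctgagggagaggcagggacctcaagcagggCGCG
Cnr1 start 3: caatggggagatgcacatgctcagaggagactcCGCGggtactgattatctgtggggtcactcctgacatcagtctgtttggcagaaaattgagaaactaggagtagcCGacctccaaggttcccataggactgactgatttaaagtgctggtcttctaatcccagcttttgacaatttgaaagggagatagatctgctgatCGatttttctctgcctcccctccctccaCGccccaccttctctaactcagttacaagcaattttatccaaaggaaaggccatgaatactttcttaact

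Cnr2, which encodes CB2, the cannabinoid receptor best known on immune cells, was close to the limit of detection. It gave 51 UMIs in 26782 nuclei, and 45 nuclei (0.168%) held one. Of the 40 UMIs in named classes 30 were in the 402 microglia-like nuclei. Microglia-like nuclei held 3, 14, 6, 2 and 5 UMIs, or 31.5, 63.3, 23.3, 11.8 and 24.2 CPM. The 5xFAD library is the high one, and counts this small allow no comparison between libraries. No granule-like nucleus held a Cnr2 UMI among 6712, and subiculum-like nuclei held 4 and CA1-like nuclei 3. Because the microglia-like total of UMIs is small, a few molecules set the CPM there.

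Gpr55, a receptor for lysophosphatidylinositol that also binds some cannabinoids, gave 184 UMIs in 0.672% of nuclei. Granule-like nuclei held 13, 6, 7, 9 and 5 UMIs and CA1-like nuclei 1, 3, 8, 8 and 7. None was found in microglia-like nuclei, a count that covers few nuclei at a low depth. Trpv1, an ion channel gated by capsaicin, heat and anandamide, gave 86 UMIs, of which 18 were in granule-like, 12 in CA1-like and 10 in subiculum-like nuclei. The libraries held 19, 12, 10, 22 and 23 Trpv1 UMIs in all. For both genes the counts per class were too few to order the classes or compare libraries.

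Cnr2 lies on chromosome 4 at 135895394 to 135920207, plus strand. Gpr55 lies on chromosome 1 at 85938318 to 85961007, minus strand, and overlaps 4933407L21Rik on the other strand. The strand setting is not stated, and whether reads of the pair were kept apart was not checked. Their first promoter windows are shown as the CG-poor counterparts of the Cnr1 window, with 3 and 4 CG: chr4:135894939-135895238 on the plus strand and chr1:85961006-85961305 on the minus strand. No listed accessible region covered either.
Cnr2 first start: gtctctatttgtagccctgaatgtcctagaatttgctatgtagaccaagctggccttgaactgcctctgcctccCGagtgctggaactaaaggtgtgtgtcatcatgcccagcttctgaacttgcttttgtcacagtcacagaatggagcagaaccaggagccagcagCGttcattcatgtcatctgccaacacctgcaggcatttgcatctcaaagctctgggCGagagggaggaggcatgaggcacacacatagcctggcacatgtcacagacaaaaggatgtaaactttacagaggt
Gpr55 start: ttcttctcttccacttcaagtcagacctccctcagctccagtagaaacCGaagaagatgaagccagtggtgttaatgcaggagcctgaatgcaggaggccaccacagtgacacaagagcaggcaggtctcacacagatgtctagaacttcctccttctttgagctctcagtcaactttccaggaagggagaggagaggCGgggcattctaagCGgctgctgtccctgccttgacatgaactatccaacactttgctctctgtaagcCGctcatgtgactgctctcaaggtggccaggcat

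Cnrip1 encodes a cytoplasmic protein that binds the tail of CB1, and its level did not follow Cnr1. It was found in 68.4% of nuclei and in every class. CA3-like nuclei were highest (131, 134, 130, 148 and 151 CPM), and granule-like nuclei, lowest for Cnr1, were second by median (109, 108, 120, 117 and 126). CA1-like nuclei had a median of 96.0 CPM, Cck/Sncg-like nuclei 75, 69.9, 86.4, 98.1 and 91.2, and oligodendrocyte-like nuclei 59.9. The Adarb2 lineage was slightly below excitatory nuclei in all 5 libraries (log2 ratio −0.35 to −0.06, median −0.29). The gene lies on chromosome 11 at 17051586 to 17079371, plus strand, and overlaps Plek, a gene of blood and immune cells, on the other strand.

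Napepld separated the dentate gyrus from CA1. Granule-like nuclei had 79.3, 82.9, 107, 88.2 and 83.6 CPM and CA1-like nuclei 9.27, 8.25, 12.6, 7.24 and 8.86. The libraries of the 2 classes did not overlap, and the log2 ratio of CA1-like to granule-like nuclei ran from −3.60 to −3.08 (median −3.23). Granule-like nuclei, 6712 of the 17935 nuclei in named classes, held 67.0% of the Napepld UMIs there. CA3-like nuclei lay between (32.5, 39.7, 51.7, 44.4 and 45.6 CPM), and interneuron classes had medians of 10.3 to 16.6. Oligodendrocyte-like nuclei were the next highest class, with 63.0, 52.6, 59.1, 54.1 and 45.7 CPM on 25 to 53 UMIs each. That is above the level in OPC-like nuclei (6.79 to 12.2 CPM), which come from the same libraries. Within CA1-like nuclei the clusters ranged from 5.48 to 17.5 CPM.

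Napepld (ENSMUSG00000044968) lies on chromosome 5 at 21662901 to 21701396, minus strand, and overlaps only the pseudogene Gm15719, on the other strand. Its promoter window, chr5:21701573-21701872 on the minus strand with 28 CG, is shown because a peak listed in all 5 libraries covers it entirely, unlike the Cnr2 and Gpr55 windows.
Napepld start: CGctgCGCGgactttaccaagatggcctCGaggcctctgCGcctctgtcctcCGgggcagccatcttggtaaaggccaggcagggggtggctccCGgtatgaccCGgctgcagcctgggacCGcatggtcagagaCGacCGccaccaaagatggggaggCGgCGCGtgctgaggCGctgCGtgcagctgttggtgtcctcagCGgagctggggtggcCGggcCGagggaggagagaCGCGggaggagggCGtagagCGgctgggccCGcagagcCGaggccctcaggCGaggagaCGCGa

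Faah was highest in excitatory nuclei. CA3-like nuclei had 116, 115, 106, 116 and 138 CPM, granule-like 100, 104, 116, 119 and 113, and CA1-like 98.9, 97.4, 95.8, 95.8 and 102. The granule-like range overlapped both others, and the CA3-like range lay above the CA1-like one. Unlike Napepld, it had similar levels in CA1-like and granule-like nuclei (median log2 ratio −0.15). Subiculum-like (median 60.2) and deep-layer nuclei (41.0) were lower. Interneuron classes had medians of 28.6 to 35.2 CPM, and the Adarb2 lineage was below excitatory nuclei by a log2 ratio of −1.91 to −1.39. Oligodendrocyte-like nuclei had 27.3 CPM at the median and microglia-like nuclei held 1 UMI over all libraries. The gene lies on chromosome 4 at 115967145 to 116017926, minus strand.

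Naaa was highest in astrocyte-like nuclei, at 58.6, 60.5, 79.2, 60.3 and 39.0 CPM, on 74 UMIs in all. Every one of these values was above every microglia-like (5.92 to 24.2 CPM) and vascular value (7.10 to 34.6), the low one being that of the global MAGL-KO library on 5 UMIs. OPC-like nuclei held 1 UMI in all, and oligodendrocyte-like nuclei had 2.30 to 5.94 CPM. Among neurons Naaa was low in granule-like nuclei (median 1.24 CPM) and higher in CA1-like ones (4.45) in every library, by a log2 ratio of 1.23 to 2.33. Sst-like nuclei had a median of 9.67 CPM, and the Adarb2 lineage exceeded excitatory nuclei by a median of 1.14 (0.67 to 1.76). Naaa lies on chromosome 5 at 92257659 to 92278170, minus strand.

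**Figure D2:**
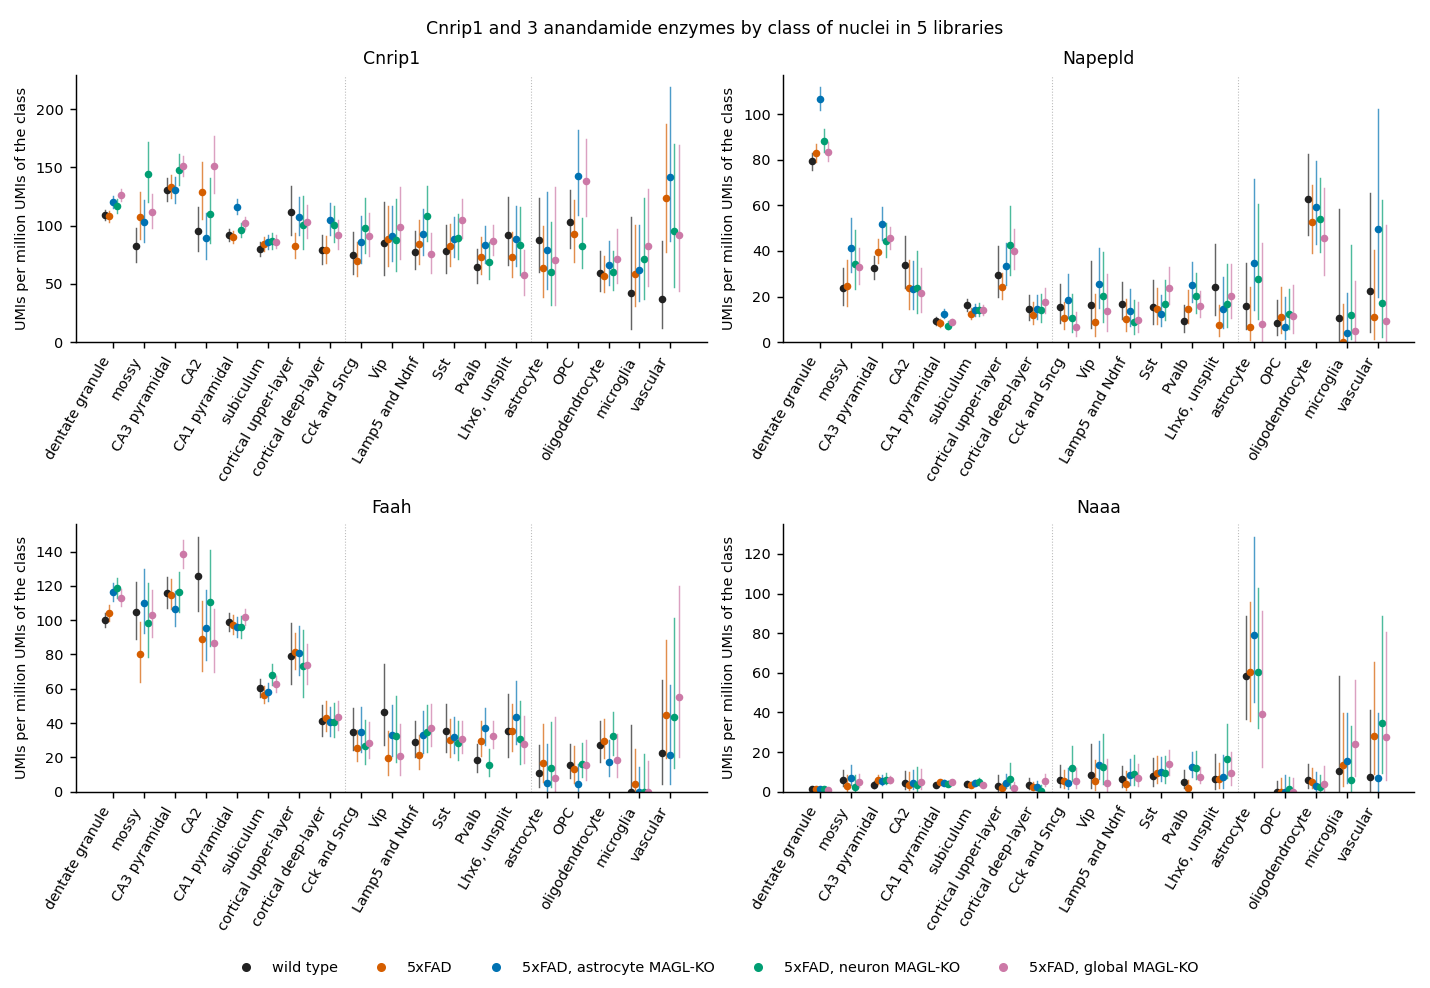
Levels of Cnrip1, Napepld, Faah and Naaa in CPM in 19 classes, on linear axes that start at 0, with 1 point per library and bars for exact 95% Poisson intervals. Napepld is high in granule-like nuclei (79.3 to 107) and low in CA1-like ones (7.24 to 12.6), and Naaa is high in astrocyte-like nuclei (39.0 to 79.2), where the bars are wide.

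For the 5 members with at least 500 UMIs, the genes with the most similar pattern were found over the 20 classes by the Pearson correlation of log2(CPM + 1), taken as the median over libraries among 15271 genes. For Cnr1 they were Scml4 (r = 0.817), Gm11844 (0.773) and Tnfaip8l3 (0.772). For Napepld they were Prrt1 (0.866), Ippk (0.851) and Tmeff2 (0.85), and for Naaa Golgb1 (0.879), Fam214b (0.853) and Anxa5 (0.841). Cnrip1 was matched by Brinp1 (0.883), Ccbe1 (0.871) and Camk2b (0.859), and Faah by Rab40b (0.967), Gm37529 (0.950) and Map9 (0.941). The classes share libraries and differ in depth, so these values only describe 20 points.

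Taken over all excitatory nuclei and by class totals, Cnr1 was higher in the 3 MAGL-KO libraries than in the 5xFAD and wild-type ones. A difference was counted as past the threshold where the log2 ratio of CPM was at least 0.5 in size and the 2 libraries held at least 100 UMIs. The excitatory levels were 49.5, 43.9, 58.5, 62.9 and 61.2 CPM, and each MAGL-KO value was above the other 2. In CA1-like nuclei alone this did not hold, since the astrocyte and global MAGL-KO libraries were below wild type. The log2 ratio was −0.17 (−0.25 to −0.10) for 5xFAD against wild type, and 0.41 (0.34 to 0.48), 0.52 (0.44 to 0.59) and 0.48 (0.41 to 0.55) for astrocyte, neuron and global MAGL-KO against 5xFAD. In excitatory nuclei 5 members had 100 UMIs, and of their values 0, 0, 1 and 0 were past 0.5 in the 4 comparisons, the 1 being Cnr1 in neuron MAGL-KO. That value fell under 0.5 with size factors (0.30), after thinning (0.19) and in nuclei with Y-linked UMIs alone (0.38). With size factors the astrocyte MAGL-KO value was 0.16, and after thinning the 5xFAD value against wild type turned to 0.067. Over all genes with 100 UMIs in excitatory nuclei, 3.33%, 23.0%, 20.9% and 5.9% were past it in the 4 comparisons. In the astrocyte and neuron MAGL-KO comparisons the median gene was itself higher by 0.22 and 0.18, and relative to that median Cnr1 was higher by 0.20 and 0.34. In the global comparison, where the median gene moved by 0.03, it was higher by 0.44.

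The make-up of the excitatory nuclei differed between libraries. Granule-like nuclei, low in Cnr1, made up 48.2%, 41.3%, 37.8%, 40.5% and 34.9% of them. These shares leave out 20, 20, 326, 276 and 586 nuclei of 2 unnamed clusters, led by Gm30551, Penk and Pappa, that had granule markers raised, Cnr1 at 8.57 and 4.30 CPM and Napepld at 77.4 and 81.2 CPM. With those nuclei counted in, the shares were 48.5%, 41.6%, 42.9%, 47.2% and 42.8%, no longer lower in the MAGL-KO libraries than in the 5xFAD one. With all clusters set aside for their leading genes put back, the 3 MAGL-KO ratios were 0.37, 0.47 and 0.40, none past 0.5. Of the 31 excitatory clusters, named or not, 28 had at least 10 nuclei in every library. Over these 28, at the weight each has in its own library, the log2 ratios were −0.17, 0.41, 0.52 and 0.48. With each of the 28 held at the same weight in every library, they were −0.15, 0.27, 0.36 and 0.18. Within CA1-like nuclei alone the ratios were −0.15, 0.09, 0.36 and 0.14, and the 0.09 turned to −0.15 under median-of-ratios size factors. Within granule-like nuclei they were −0.39, 0.49, 0.64 and 0.39 on 115 to 174 UMIs per library. As these levels were not read as expression, the ratios may be of background, and the largest cluster of that class was not the same in all libraries.

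Inhibitory nuclei gave 352, 406, 379, 358 and 354 CPM of Cnr1, highest in the 5xFAD library. The log2 ratios were 0.21 (0.12 to 0.29), −0.10 (−0.18 to −0.02), −0.18 (−0.27 to −0.10) and −0.20 (−0.28 to −0.12), none past 0.5, where 4.64%, 15.3%, 13.7% and 6.43% of all genes were. Of the 12 inhibitory clusters 8 had at least 10 nuclei in every library, and over these 8 the values of the 3 MAGL-KO comparisons were −0.23, −0.23 and −0.37. With the same 8 held at equal weights they were 0.12, 0.08 and 0.06, with the opposite sign. In the astrocyte comparison the median gene of inhibitory nuclei was higher by 0.12. Within the Cck/Sncg-like class the 3 MAGL-KO ratios were −0.003, 0.05 (−0.09 with size factors) and −0.06. The small values for astrocyte and global MAGL-KO hold opposite ones: −0.53 and −0.33 in nuclei with Xist alone, and 0.25 and 0.19 in nuclei with Y-linked UMIs alone. The 5xFAD library was above wild type there by 0.28 (0.18 to 0.38), on 2244 and 1354 UMIs. Vip-like nuclei gave −0.08, 0.54, 0.25 and 0.57, and Lamp5/Ndnf-like nuclei −0.30, 0.32, −0.14 and 0.57.

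**Figure D3:**
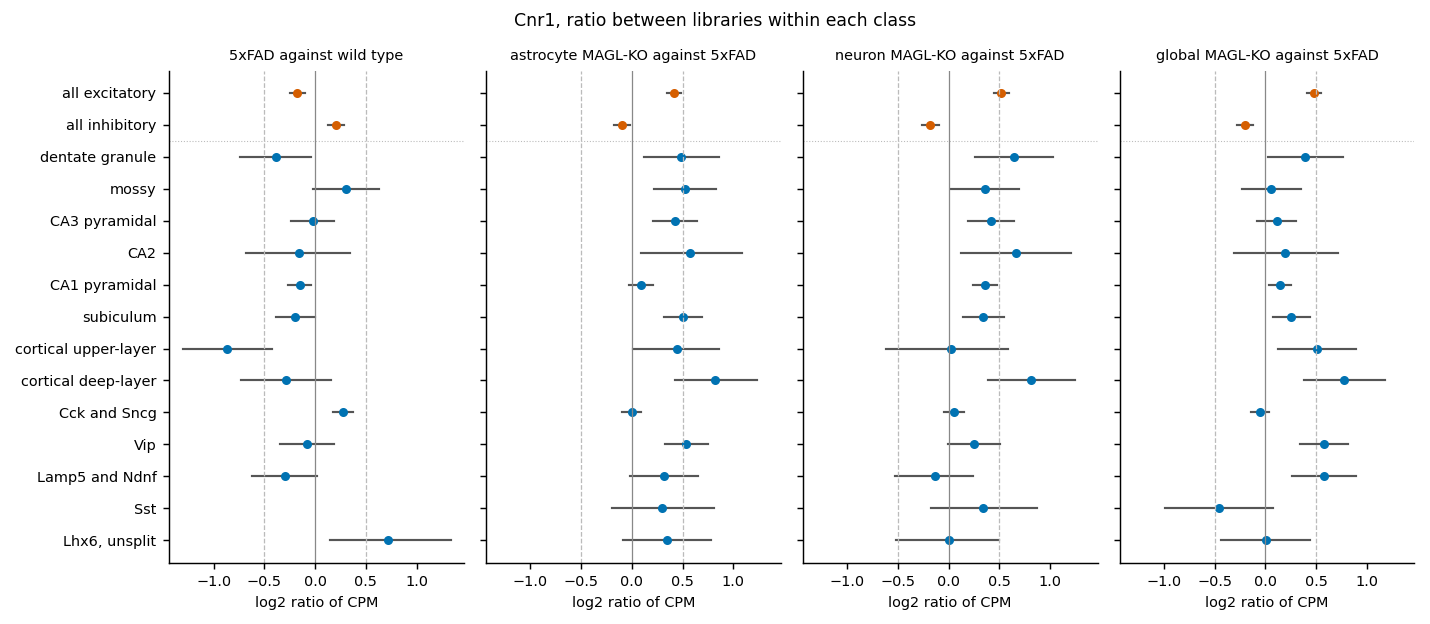
Log2 ratio of Cnr1 CPM between libraries in all excitatory, all inhibitory and each named class with at least 100 UMIs, with exact 95% intervals for counting error and dashed lines at −0.5 and 0.5. The Cck/Sncg-like points of the 3 MAGL-KO comparisons lie at −0.06 to 0.05 (the 0.05 is −0.09 with size factors), and the deep-layer points at 0.77 to 0.82.

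Over the 20 classes few member values passed the threshold, and their share was near that of all genes in 2 of the 4 comparisons. For 5xFAD against wild type 3 of 42 did, beside 6.31% of all gene and class values (2.85% higher and 3.46% lower). They were Cnr1 in upper-layer nuclei (−0.87), Cnr1 in Lhx6-lineage nuclei that were neither Sst- nor Pvalb-like (0.71) and Naaa in CA1-like nuclei (0.59, on 63 and 44 UMIs). For astrocyte MAGL-KO 8 of 43 did, beside 15.4% of all values: Cnr1 in 5 classes (0.50 to 0.82), Cnrip1 in CA2-like (−0.52) and OPC-like nuclei (0.62), and Napepld in CA1-like nuclei (0.61). For neuron MAGL-KO 4 of 41 did, beside 15.3%: Cnr1 in granule-like (0.64, at a level not read as expression), CA2-like (0.66) and deep-layer nuclei (0.82), and Napepld in upper-layer nuclei (0.84). For global MAGL-KO 6 of 41 did, beside 7.5% (4.53% higher and 2.97% lower): Cnr1 in upper-layer (0.51), deep-layer (0.77), Vip-like (0.57) and Lamp5/Ndnf-like nuclei (0.57), Cnrip1 in OPC-like nuclei (0.58) and Napepld in upper-layer nuclei (0.74).

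The split of higher and lower values depended on the scaling. Subiculum-like nuclei, also past the threshold for Cnr1 in astrocyte MAGL-KO (0.50), had as their largest cluster one led by Klhl1 and Fezf2 in wild type, 5xFAD and global MAGL-KO and one led by Kcnh8 and Vwc2l in the other 2. In astrocyte MAGL-KO and 5xFAD, Cnr1 was at 84.9 and 56.9 CPM in the Klhl1 cluster. It was at 43.0 and 25.9 in the Kcnh8 cluster, and at 49.9 and 51.3 in the third cluster of the class. By class totals the astrocyte MAGL-KO members were 7 higher and 1 lower, where all genes were 12.1% higher and 3.27% lower. By size factors they were 2 and 1, where all genes were 5.6% higher and 7.4% lower. For neuron MAGL-KO the members went from 4 higher and 0 lower to 3 and 1, and all genes from 11.4% and 3.91% to 5.88% and 8.04%. For global MAGL-KO the members went from 6 and 0 to 5 and 1, and all genes from 4.53% and 2.97% to 3.72% and 3.61%.

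Deep-layer nuclei as a class gave the same direction for Cnr1 under both scalings in all 3 MAGL-KO comparisons. Their levels were 44.3, 36.3, 64.4, 64.0 and 62.2 CPM, on 84 to 152 UMIs, with the MAGL-KO libraries above both others. The ratios to 5xFAD were 0.82, 0.82 and 0.77 by totals and 0.65, 0.66 and 0.74 by size factors. These nuclei carry cortical markers. The cluster that was largest among them was led by Dkk2, the high one for Cnr1, in wild type and by Foxp2, the low one, in the other 4 libraries. Within the Dkk2 cluster the levels were 66.5, 61.4, 102, 99.0 and 116 CPM, again with the MAGL-KO libraries above both others. Within the Foxp2 cluster they were 20.8, 19, 26.0, 43.5 and 18.6, where global MAGL-KO was not above 5xFAD. Since the 3 comparisons share the 5xFAD library, its low value enters all of them.

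By class totals the enzymes moved less than Cnr1 in excitatory nuclei, which did not hold for Faah in astrocyte MAGL-KO under size factors. Faah gave −0.04, 0.03, 0.10 and 0.09 in the 4 comparisons, and the 0.03 and 0.10 turned to −0.23 and −0.13 under size factors. Napepld gave −0.08, 0.28, 0.09 and −0.07, of which the neuron MAGL-KO value turned to −0.13. In granule-like nuclei, its main site, the astrocyte MAGL-KO library was highest (107 CPM against 79.3 to 88.2 in the other 4), a ratio of 0.36 to 5xFAD, where the median gene of the class moved by 0.18. Cnrip1 gave −0.05, 0.17, 0.13 and 0.19, and the astrocyte and neuron values turned to −0.08 and −0.09 under size factors. Naaa gave 0.08, 0.22, 0.05 and 0.19 on 153 to 286 UMIs, and the astrocyte and neuron values turned to −0.03 and −0.17. In inhibitory nuclei 2 of 5 members were past 0.5 in the astrocyte MAGL-KO comparison, beside 15.3% of all genes, and 1 of 5 in the neuron one, beside 13.7%. They were Napepld (0.67) and Naaa (0.53) in the former and Naaa (0.92, on 64 and 48 UMIs) in the latter. Under size factors they were 0.49, 0.35 and 0.77, so that only the last stayed past it.

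The rest of the pathway was read from a list of 37 genes, of which 34 have a row: enzymes of 2-arachidonoylglycerol, other routes of anandamide synthesis, oxidation, lipid carriers, other receptors and CB1 partners. In excitatory nuclei 25 had 100 UMIs. None passed 0.5 for 5xFAD against wild type, where 3.33% of all genes did (median −0.008, beside −0.01 over all genes). None did for global MAGL-KO, where 5.9% of all genes did (median 0.005, beside 0.03). For astrocyte MAGL-KO 3 of 25 were past it, all higher, where 23.0% of all genes were past it (median 0.09, beside 0.22 over all genes): Gpr18, a receptor of the lipid N-arachidonoyl glycine (0.81), and the fatty acid carriers Fabp5 (0.81) and Fabp3 (0.59). Under size factors these were 0.55, 0.55 and 0.34, so that Fabp3 was no longer past it. For neuron MAGL-KO 2 of 25 were past it, both higher, where 20.9% of all genes were (median 0.14, beside 0.18), Gpr18 (0.98) and Fabp5 (0.78), or 0.76 and 0.55 under size factors. Ptpn22, a phosphatase gene at −0.31 by totals, then passed it at −0.53. The levels of Gpr18 in excitatory nuclei were 3.21, 2.90, 5.08, 5.71 and 2.91 CPM, with those 2 libraries above the other 3, and those of Fabp5 were 2.55, 2.93, 5.13, 5.02 and 2.96. In inhibitory nuclei 18 or 19 had 100 UMIs, and 2 passed, both of 18 for astrocyte MAGL-KO, where 15.3% of all genes did: Gde1, a glycerophosphodiesterase of an alternative anandamide route (0.62), and the nuclear receptor gene Pparg (−0.75). Under size factors they were 0.44 and −0.93, so that Gde1 lost its call, while Gnai3, a gene of an inhibitory G protein subunit, passed it in astrocyte (−0.55) and neuron MAGL-KO (−0.58).

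In the 4 glial classes few pathway genes had 100 UMIs. For 5xFAD against wild type 2 of 18 values were past 0.5, beside 9.35% of all glial gene and class values: Mgll in astrocyte-like nuclei (−0.54, on 93 and 171 UMIs) and Inpp5d, a lipid phosphatase gene, in microglia-like ones (−0.50, or −0.47 with size factors). For astrocyte MAGL-KO 2 of 18 were, beside 12.9%: Gprasp1, whose protein binds receptor tails, in oligodendrocyte-like (−0.51) and OPC-like nuclei (−0.50). For neuron MAGL-KO 3 of 20 were, beside 12.8%: Mgll (0.53, or 0.45 with size factors) and Gnai1 (0.71) in OPC-like nuclei and Gnai3 in oligodendrocyte-like ones (−0.53). For global MAGL-KO 1 of 18 was, beside 9.72%: Gnai3 in oligodendrocyte-like nuclei (−0.90, on 23 and 79 UMIs). Each of these counts is 1 to 3 values, a share near that of all genes.

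Chromatin accessibility was read from the same nuclei as Tn5 cut sites in the peaks listed for each library, scaled to 1000000 cut sites in peaks of the class (cut-site CPM). Cnr1 had a peak over its start site, chr4:33924233-33925173, in all 5 libraries. Cck/Sncg-like nuclei were highest by median at 12.2, 62.7, 33.9, 57.9 and 69.5 cut-site CPM, on 113 cut sites in all; the wild-type value rests on 6. CA1-like nuclei had 20.7, 20.2, 23.6, 22.1 and 19.9, above the Cck/Sncg-like ones in the wild-type library, and granule-like nuclei 7.0, 6.02, 8.53, 7.79 and 6.91. The CA1-like values were above the granule-like ones in every library, and a peak upstream, chr4:33922772-33923750, showed the same order (median 10.3 and 2.57). Mossy-like nuclei had 28.1 at the median and CA3-like 25.2.

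The start site peak and the RNA were correlated across the excitatory and across the interneuron classes. They were not across the non-neuronal classes, which include vascular nuclei. The Pearson correlation of their log2 medians was 0.936 over 8 excitatory classes and 0.97 over 6 interneuron classes, and −0.159 over 5 non-neuronal ones. Over all 19 classes it was 0.55, or 0.519 with cut sites scaled to promoter peaks. OPC-like nuclei had 35.4 cut-site CPM (31.9 to 43.1, on 132) and astrocyte-like nuclei 29.5 (9.65 to 38.8, on 76), with Cnr1 RNA at 29.4 and 9.27 CPM. By this scaling the OPC-like range lay above that of CA1-like nuclei. Microglia-like nuclei had 2 cut sites in all. The classes share libraries and peaks, and their denominators are not alike. Promoter peaks took 29.8% to 31.3% of cut sites in granule-like nuclei and 24.7% to 25.7% in CA1-like ones. They took 44.7% to 46.1% in astrocyte-like and 43.0% to 45.2% in OPC-like nuclei. The order of OPC-like and CA1-like nuclei is therefore given for this scaling only. In excitatory nuclei the start site peak had 14.3, 15.4, 17.1, 15.6 and 16.3 cut-site CPM, log2 ratios of 0.11, 0.15, 0.01 and 0.08, where the RNA gave −0.17, 0.41, 0.52 and 0.48. The upstream peak gave 0.13, 0.05, −0.41 and −0.08, the −0.41 for neuron MAGL-KO on 212 and 322 cut sites being opposite in sign to the RNA. A further peak near the third start site gave 0.12, 0.12, −0.16 and −0.08 on 147 to 214 cut sites.

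**Figure D4:**
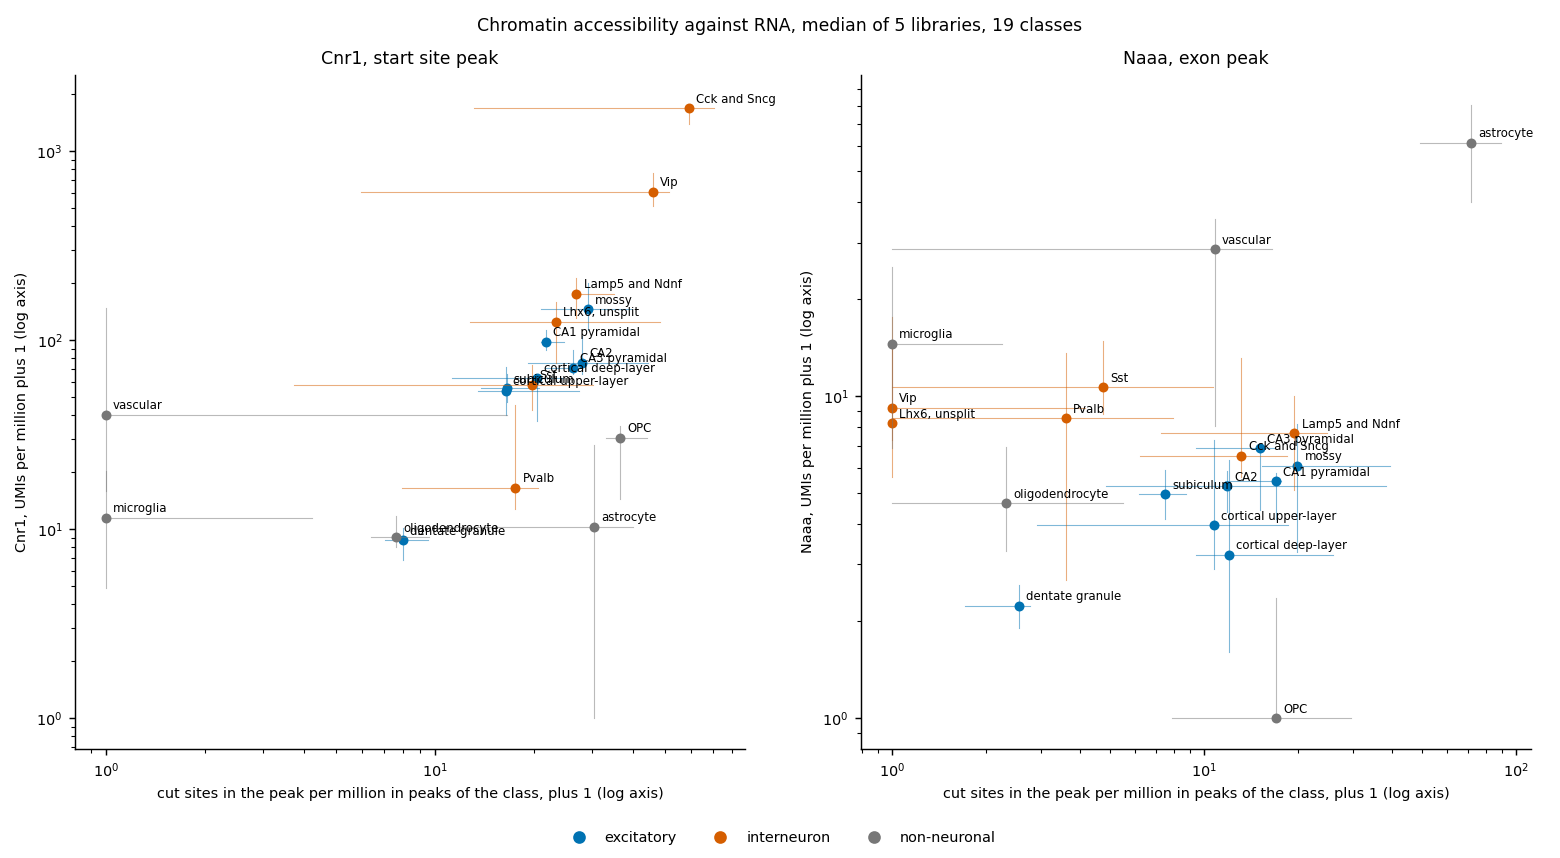
Cut-site CPM of a peak plus 1 (horizontal) and RNA CPM plus 1 of the same gene (vertical), both on log axes. Each class has 1 point at the median of 5 libraries, with lines from the lowest to the highest library. For Cnr1, left, the neuronal points rise together from granule-like (7.0 and 7.71) to Cck/Sncg-like nuclei (57.9 and 1683), while astrocyte- and OPC-like points lie to the right; for Naaa, right, astrocyte-like nuclei stand at the top.

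Napepld RNA was not correlated with its start site peak, chr5:21701068-21701977, across the excitatory or across the interneuron classes. That peak had a median of 45.5 cut-site CPM or more in every class and 167 in oligodendrocyte-like nuclei, and granule-like (62.9) and CA1-like nuclei (50.9) differed little there, with a correlation of −0.05 over the 8 excitatory and 0.03 over the 6 interneuron classes. Over the 5 non-neuronal classes it was 0.725, and over all 19 it was −0.22, or 0.04 with cut sites scaled to promoter peaks. Of 5 intron peaks listed in all 5 libraries, 1 separated them and is described because it did so, chr5:21679687-21680514: granule-like nuclei had a median of 14.2 (13.7 to 15.1), CA3-like 6.98 (6.6 to 12.4) and CA1-like 3.78 (2.70 to 5.27). That is the order of the RNA in these 3 classes, without overlap between libraries. The other 4 intron peaks did not follow it. In the order granule-like, CA3-like and CA1-like their medians were 2.18, 3.45 and 4.24 at the first, 6.94, 5.18 and 6.78 at the second, 13.0, 6.89 and 12.2 at the third, and 2.21, 8.92 and 1.88 at the fourth. For Cnrip1 the correlation of start site peak and RNA was 0.279 over the excitatory and −0.024 over the interneuron classes. Faah gave −0.315 and −0.0786, and Naaa 0.781 and 0.242. Scaled to promoter peaks, the excitatory values of Cnrip1, Faah and Naaa were 0.619, 0.215 and 0.862. Over all 19 classes these genes gave 0.141, 0.665 and 0.713, or 0.507, 0.857 and 0.615 so scaled.

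Naaa had a peak over a coding exon, chr5:92263641-92264592. Astrocyte-like nuclei were highest with 70.9 cut-site CPM (48.3 to 88.1), CA1-like nuclei had 16.0 (10.7 to 16.6) and granule-like nuclei 1.56 (0.716 to 1.76). In excitatory nuclei the libraries gave 7.25, 5.38, 9.82, 9.19 and 10.4 cut-site CPM, with the 3 MAGL-KO libraries above the other 2 and log2 ratios to 5xFAD of 0.87, 0.77 and 0.95 that share the low 5xFAD value. The start site peak of Naaa gave 0.005, −0.21 and 0.01 in the same comparisons, on 599 to 921 cut sites, so the difference was not shared by both peaks. The RNA ratios of the same comparisons were 0.22, 0.05 and 0.19. The part of the make-up of excitatory nuclei in these ratios was not tested.

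Cnr2, Gpr55 and Trpv1 had no listed peak over a start site. Their windows hold 3 or 4 CG, and among all promoter windows with fewer than 5 CG 13.2% overlapped a listed wild-type peak, against 45.6% with 5 to 14 and 92.2% with 15 or more. Inside Cnr2 a peak over an exon without coding sequence, chr4:135918651-135919422, was listed in 3 libraries, and microglia-like nuclei were highest there at 38.7 cut-site CPM (36.3 to 64.1, on 79 cut sites), beside 6.10 in CA1-like nuclei. In Gpr55 an intron peak, chr1:85942051-85942936, was highest in deep-layer nuclei at 18.1 (8.27 to 22.2), above subiculum-like ones at 3.84 (2.96 to 5.06). Deep-layer nuclei held 3 Gpr55 UMIs. Of the motifs searched on both strands, GGGCGG was in 35.7% of all windows, CCAAT in 37.4%, TATAAA in 13.6% and TGACGTCA in 1.79%. The first Cnr1 window held GGGCGG at 5 places, and no member window held TATAAA or TGACGTCA.

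**Figure D5:**
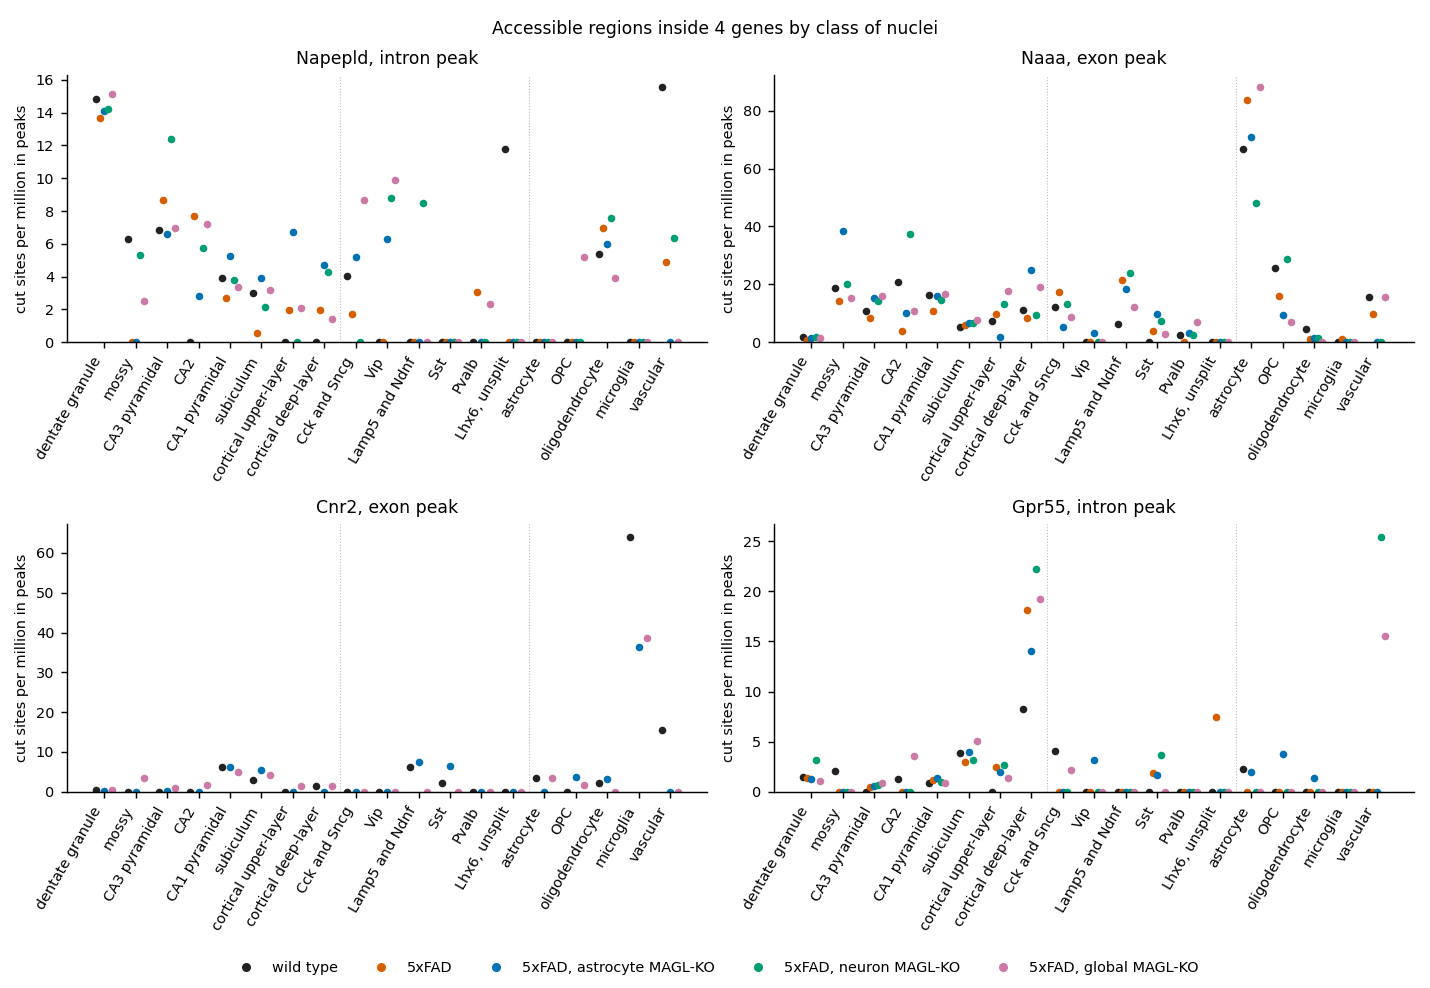
Cut-site CPM at the Napepld intron peak, the Naaa exon peak, the Cnr2 exon peak and the Gpr55 intron peak in 19 classes, with 1 point per library on linear axes that start at 0. Only the libraries that list a peak are shown. The highest medians are in granule-like nuclei for Napepld (14.2), astrocyte-like for Naaa (70.9), microglia-like for Cnr2 (38.7) and deep-layer for Gpr55 (18.1), and single vascular points rest on few cut sites.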

How the data were processed

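The 5 libraries are 10x Multiome preparations of nuclei from mouse hippocampus, 1 per group. The authors deposited raw counts, unnormalized UMIs per gene and Tn5 cut sites per peak for each nucleus barcode. Alignment and counting used Cell Ranger ARC 2.0.0 with the mm10 build, and Seurat is also named, per the submitters' processing notes. Strand setting and intron counting are not given in the sources used here. The position columns deposited with each feature, of another kind than counts (other), gave peak coordinates and gene start sites, per the file headers.

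Nuclei with fewer than 500 genes or over 5% mitochondrial UMIs were left out, and the highest Scrublet scores were removed at 0.8% per 1000 nuclei. Clustering used scanpy 1.11.5 and leidenalg 0.10.2 with 2000 variable genes, 40 or 30 components, 15 neighbours and a resolution of 1.0, without the 8 genes and the listed pathway genes. A class needed 3 raised markers and no second list above 0.75 of its score. Clusters with at least 30% of nuclei holding Xist and Y-linked UMIs were set aside, as were those whose leading genes held more markers of another class, limits set after the data were seen. UMIs were summed per class and library, with exact 95.0% Poisson or Clopper-Pearson intervals and, for ratios with 0.5 counts added, conditional binomial intervals (scipy 1.17.1), which cover counting error only. No p-value was computed, since each group is 1 library. The ratio script was tested on simulated data. Values were named by rule: every member in each class with 30 UMIs, the listed pathway genes by counts and by their highest and lowest ratio, and the 3 genes most like each member with 500 UMIs. Gpr18, Fabp5 and Fabp3 levels, the clusters within classes and the intron and exon peaks shown were added after their values were seen. Members and lists were chosen with earlier results of these data known. Alternatives were size factors, a pseudocount, a lower UMI minimum, other class assignment, mean over nuclei, thinning, stricter doublet removal, clustering with the members, nuclei of 1 sex, and 4 added after seeing the data: clusters put back, a 20% limit, only clusters with at least 10 nuclei in every library, and these at equal weights. Promoter sequences are from the RefSeq table on GRCm38.p6, which shares its chromosome coordinates with mm10, and gene positions from GENCODE vM21.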

Additional observations from a re-analysis of the deposited data

Results flagged for a closer look

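Each library held nuclei with Xist UMIs and no Y-linked UMI and nuclei with the reverse, and the same ratio between libraries was computed in each kind. Of the 214 member, class and comparison cases with at least 30 UMIs in each kind, 6 moved in opposite directions, with neither counting interval reaching 0. That is 2.8%, beside 1.92% of 460963 cases over all genes. The difference between the 2 kinds was not tested, and no label names the mice of either kind.

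Cnr1 in inhibitory nuclei gave a log2 ratio of −0.66 (−0.79 to −0.53) in Xist nuclei and 0.34 (0.23 to 0.45) in Y nuclei for astrocyte MAGL-KO against 5xFAD. For global MAGL-KO it gave −0.59 (−0.71 to −0.47) and 0.37 (0.26 to 0.47). In Cck/Sncg-like nuclei alone Cnr1 gave −0.53 (−0.70 to −0.36) and 0.25 (0.12 to 0.39) for astrocyte MAGL-KO. For global MAGL-KO it gave −0.33 (−0.48 to −0.19) and 0.19 (0.07 to 0.31) there. These cases share the 5xFAD library. The Cck/Sncg-like nuclei are part of the inhibitory ones, so their cases are not separate from the inhibitory cases. That class held 33 to 51 nuclei per library before this split, and the intervals do not cover the spread between nuclei. For 5xFAD against wild type, Cnr1 in Vip-like nuclei gave 0.57 (0.18 to 0.97) in Xist nuclei and −0.66 (−1.07 to −0.22) in Y nuclei. Napepld in excitatory nuclei gave −0.25 (−0.38 to −0.11) and 0.12 (0.01 to 0.23) for global MAGL-KO.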

How the results depend on the processing

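No paired analysis was possible because every condition has 1 library and the labels tie none to another. Of the recomputed values, 98 stayed within the counting interval (or, for counts, within 1.5 times) and 66 moved; the cause was not tested. The higher Cnr1 level of the Adarb2 lineage (3.87) kept its direction, at 2.73 with classes from the highest marker score, 3.95 with equal weights of the clusters that had at least 10 nuclei in every library, 3.97 as a mean over nuclei, 3.94 thinned, 3.69 (nuclei with Xist alone), 4.26 (Y-linked UMIs alone) and 3.76 with the pseudocount. The excitatory Cnr1 ratio of 5xFAD to wild type (−0.17) was −0.28 by highest score, 0.067 thinned and −0.084 in Y nuclei. For astrocyte MAGL-KO (0.41) it was 0.27 with equal weights, 0.16 with size factors and 0.33 in Xist nuclei. For neuron MAGL-KO (0.52) it was 0.36 with equal weights, 0.30 with size factors, 0.19 thinned and 0.38 in Y nuclei, all under 0.5, as was 0.47 with clusters put back. For global MAGL-KO (0.48) it was 0.37 by highest score, 0.40 with clusters put back, 0.18 with equal weights, 0.36 thinned, 0.58 (Xist) and 0.26 (Y). The inhibitory ratio of 5xFAD to wild type (0.21) was 0.45 by highest score, 0.32 with the members kept in clustering, 0.33 thinned and 0.30 over the 8 clusters with 10 nuclei in every library at their own weights, where the astrocyte and global MAGL-KO values were −0.23 and −0.37. For astrocyte MAGL-KO (−0.10) it was 0.12 with equal weights, −0.0062 as a mean over nuclei, −0.28 with size factors, 0.38 thinned, −0.66 (Xist) and 0.34 (Y). For neuron MAGL-KO (−0.18) it was 0.075 with equal weights, −0.056 as a mean over nuclei, −0.34 with size factors, 0.062 thinned, −0.54 in Y nuclei and −0.089 with stricter doublet removal. For global MAGL-KO (−0.20) it was −0.39 by highest score, −0.28 with clusters put back, 0.062 with equal weights, −0.070 as a mean over nuclei, 0.089 thinned, −0.59 in Xist nuclei, 0.37 in Y nuclei and −0.076 with stricter doublet removal. The inhibitory ratios of the MAGL-KO libraries therefore have no stable sign over these settings.

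The count of member values past 0.5 for 5xFAD against wild type (3) was 7 with a minimum of 30 UMIs, 6 by highest score, 6 with stricter doublet removal and 1 thinned. For astrocyte MAGL-KO (8) it was 15, 13 and 0 with 30 UMIs, by highest score and thinned, 3 with size factors and 2 in Xist nuclei. For neuron MAGL-KO (4) it was 7, 11 and 0 in the same order as these first 3, and 7 as a mean over nuclei. For global MAGL-KO (6) it was 10, 10 and 0, and 3 in Xist nuclei. The number of values tested changes with the setting and, like the share over all genes, is not given beside these counts. The counts are therefore not read as a result about the members. Cnr2, Gpr55 and Trpv1, at 51, 184 and 86 UMIs, were too shallow for any ratio, and thinning to 1000 UMIs leaves few values with 100 UMIs.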
